A study of Homo sapiens with 20 samples.

Results

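Cells of the stem cell-derived β (SC-β) stage, day 21 of pancreatic differentiation, were compared between the WT line and the GPX2 KO line by single-cell RNA-seq, with 1 library per genotype. Barcodes with 1500 to 5000 detected genes and under 15% mitochondrial UMIs (unique molecular identifiers, each standing for 1 captured RNA molecule) were taken as cells. This left 6128 WT and 5611 GPX2 KO cells. They are 11739 of the 15277 single cells of days 8 and 21 in a series of 20 samples. The series also holds bulk RNA-seq and ATAC-seq. The upper limit on genes was unequal in effect, as it left out 151 WT and 828 KO barcodes. Without that limit there were 6278 WT and 6439 KO cells. Both lines derive from HUES8, an established human embryonic stem cell line, and GPX2 was deleted with CRISPR/Cas9 in a HUES8 derivative with inducible Cas9. The KO line is 1 homozygous clone. Both were grown as spheroids through the same series of media, so they differ by label in GPX2 alone. With 1 clone and 1 library on the KO side, genotype, clone, culture and library cannot be told apart. No test between genotypes was therefore run, and every interval below is an exact 95% interval that covers counting error only.

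GPX2 is a selenium-dependent glutathione peroxidase of gut epithelium that reduces hydrogen peroxide and lipid peroxides with glutathione. Pancreas, liver and intestine all arise from neighbouring regions of the endoderm, and protocols toward β cells steer foregut through PDX1-positive pancreatic progenitors and NEUROG3-positive endocrine progenitors to hormone-producing cells. Liver cells are known for secreting fibrinogen, apolipoproteins and α-fetoprotein, intestinal cells for CDX2 and CDH17, and endocrine cells for chromogranin A and peptide hormones packed in granules. Metallothioneins are small cysteine-rich proteins that bind zinc and copper and are induced by metals and oxidants.

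The GPX2 KO library was the deeper of the pair. The median cell held 5638 UMIs in WT and 8061 in KO, and the summed totals were 37074512 and 46596224 UMIs. Levels are therefore given as CPM, the UMIs of a gene summed over all cells of a genotype and scaled to a common library total, and shares of cells also after each cell was thinned to 3000 UMIs. The median mitochondrial share was 4.63% in both. After thinning the median cell had 1821 genes in WT and 1741 in KO. The files were filtered to cells by the authors in WT (8911 barcodes) and unfiltered in KO (1285152 barcodes), and 7 barcodes occurred in both sets of cells. KO barcodes with 1 to 100 UMIs, which are mostly empty droplets, gave the level of free RNA in KO, and WT has no such barcodes here. Endocrine markers were present as labelled: CHGA, CHGB, SCG5, PCSK1N, INS, GCG and SST summed to 23280 CPM in WT and 33171 CPM in KO. Of PECAM1, CDH5, PTPRC and HBA2, markers of endothelium and blood, the sums were 0.620 and 0.837 CPM, with 1 of the 4 at 0 UMIs in each library.

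GPX2 itself (ENSG00000176153, chr14:64939152-64942746, GRCh38) was lower in the KO library but was not at 0. WT cells held 109 UMIs of GPX2, or 2.94 CPM (2.41 to 3.55). KO cells held 46, or 0.987 CPM (0.723 to 1.32), a ratio of KO to WT of 0.336 (0.233 to 0.478). KO UMIs of GPX2 lay in 44 cells, and the empty droplets held 4 more. In the CHGA-high cells defined further on, WT held 35 UMIs of GPX2 and KO 1. In CHGA-low cells WT held 74 and KO 45. By western blot the authors found no GPX2 protein in KO pancreatic and endocrine progenitors. Whether the KO UMIs of GPX2 come from sequence that the deletion left or from elsewhere was not tested.

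Of 13568 genes with at least 5 CPM in either genotype, 664 were at least 2-fold higher in the GPX2 KO library (4.89%) and 425 at least 2-fold lower (3.13%). Among these, 145 of the higher genes reached 50 CPM in KO and 105 of the lower genes reached 50 CPM in WT. The median log2 ratio of all tested genes was -0.10, so a list of genes without any particular difference would lie near that value. Ratios also shifted with gene span. Protein-coding genes under 10 kb had a median log2 ratio of 0.16 and those of 100 to 300 kb -0.19, and the 96 ribosomal protein genes had 0.25, none of them past 2-fold. Scaling by the median gene in place of the total moved the median of all genes by 0.11 and gave 764 higher and 322 lower genes. The genes with the most UMIs were nearly the same in both libraries: MALAT1, INS, EEF1A1, RPL41 and 5 mitochondrial transcripts were among the 10 most abundant in each.

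**Figure D1:**
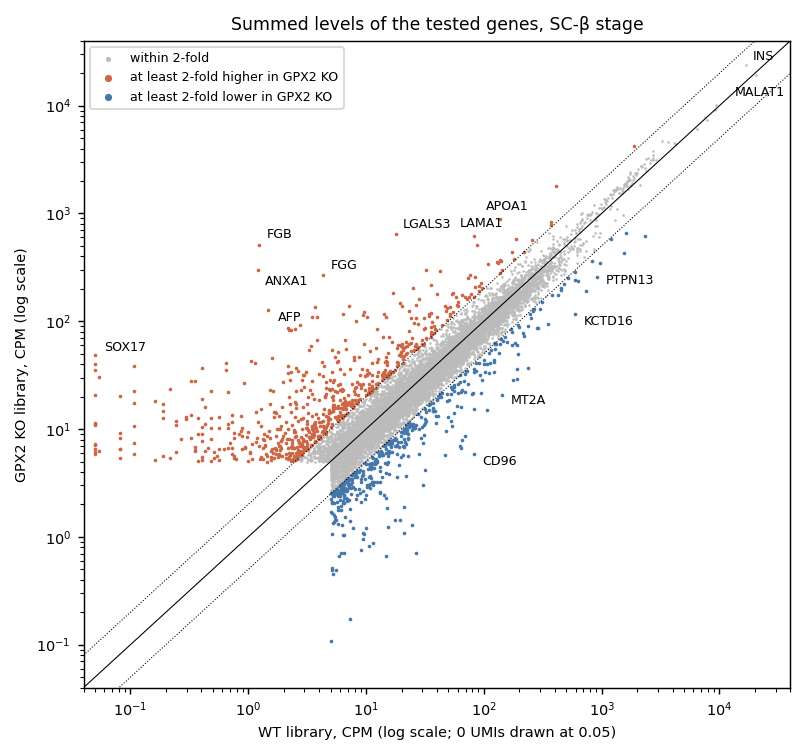
Summed level of each tested gene in WT (horizontal axis, CPM, log scale) and GPX2 KO (vertical axis, CPM, log scale), 1 point per gene; the solid line marks equal levels and the dotted lines 2-fold. FGB, ANXA1, AFP and FGG lie at 1.21 to 4.32 CPM in WT and 127 to 505 CPM in KO, whereas CD96, MT2A and KCTD16 lie below the lower dotted line.

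Genes of proteins that the liver secretes were among those higher in the GPX2 KO library, several of them from near 0 in WT. Of 30 such genes, 18 reached 5 CPM in either genotype and 12 did not. Among the 18, 11 were at least 2-fold higher in KO and 0 lower. Their median log2 ratio was 1.53. A gene absent from WT passes the 5 CPM minimum through KO alone. This count and the list counts below therefore describe their lists and are no test of them. FGB, which encodes the β chain of fibrinogen (chr4:154563011-154572807), stood at 1.24 CPM (0.908 to 1.65) in WT and at 505 CPM (499 to 512) in KO. That is a ratio of 407 (305 to 556). The other fibrinogen chains had the same direction: FGG stood at 4.32 CPM in WT and 271 CPM in KO, a ratio of 62.9 (53.8 to 74.0), and FGA at 3.40 and 59.2 CPM, a ratio of 17.4 (14.6 to 21). The 3 chains assemble into 1 secreted clotting protein, and their genes lie close together on chromosome 4.

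AFP, the α-fetoprotein of fetal liver and yolk sac, stood at 1.48 CPM in WT and 127 CPM in KO, a ratio of 85.5 (65.6 to 114). ALB, the albumin of more mature hepatocytes, was low in both, at 0.351 and 3.09 CPM (13 and 144 UMIs). APOA1, the main protein of high-density lipoprotein, was already at 138 CPM (134 to 141) in WT and reached 895 CPM (886 to 903) in KO, a ratio of 6.50 (6.31 to 6.69). TTR, the transthyretin that carries thyroid hormone and is made in liver and in islet α cells, stood at 1893 CPM in WT and 4233 CPM in KO, a ratio of 2.24 (2.22 to 2.26). RBP4 (0.647 and 40.9 CPM), VTN (39.7 and 178 CPM) and SERPINA1 (27.5 and 94.2 CPM) were higher in KO as well. APOC1, at 266 CPM in WT and 260 CPM in KO, and APOE, at 687 and 1014 CPM, were within 2-fold. The list thus split into genes nearly silent in WT and genes that WT cells already expressed.

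Hepatic transcription factors showed no common direction. Of 20 tested, 5 were at least 2-fold higher and 2 at least 2-fold lower in KO. HNF4A, the nuclear receptor of liver and gut epithelium, stood at 63.3 CPM in WT and 69.4 CPM in KO, and FOXA2 at 138 and 86.4 CPM. TBX3, a T-box factor of the early liver bud, stood at 5.69 and 42.3 CPM, a ratio of 7.42 (6.44 to 8.60). CEBPA, a driver of hepatocyte genes, stood at 4.86 and 15.2 CPM, and the orphan receptor NR2F2 at 34.5 and 117 CPM. Its paralogue NR2F1 went the other way, with 79.8 CPM in WT and 21.2 CPM in KO.

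Some genes of intestine and duct were also higher in the GPX2 KO library, while early endoderm genes showed no common direction. Of 25 intestinal genes 10 were tested, of which 5 were at least 2-fold higher and 1 lower in KO. CDX2, the homeobox factor of hindgut and intestine, stood at 5.77 CPM (5.02 to 6.60) in WT and 52.2 CPM (50.2 to 54.3) in KO, a ratio of 9.05 (7.86 to 10.5). CDH17, the liver-intestine cadherin, stood at 2.29 and 82.8 CPM, a ratio of 36.1 (29.1 to 45.3). SI, the sucrase-isomaltase of the brush border, was without a UMI in WT and had 1638 UMIs in KO, which makes it at least 434-fold higher against a floor of 3 counts per library. CLDN18, a claudin of stomach and lung epithelium that the list also holds, was lower in KO, at 189 CPM in WT and 36.3 CPM in KO. Of 13 tested acinar and ductal genes 5 were higher and 1 lower (median log2 ratio 0.24). Among them CFTR, the chloride channel of pancreatic duct and gut, stood at 2.18 CPM in WT and 86.5 CPM in KO, a ratio of 39.6 (31.8 to 49.9).

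Of 11 tested early endoderm genes 1 was higher and 2 were lower (median log2 ratio 0.18). The higher one, SOX17, a factor of definitive endoderm and of the biliary bud, had 0 UMIs in 6128 WT cells and 2280 in the KO library. KO was thus at 48.9 CPM and at least 605-fold higher against the same floor. LGALS3, which encodes galectin-3, a sugar-binding protein of epithelia and macrophages, had the highest KO level among the 12 genes with the highest ratios. It stood at 17.9 CPM (16.6 to 19.3) in WT and 648 CPM (641 to 656) in KO, a ratio of 36.2 (33.5 to 39.1). The remaining genes of that set were CST1, a cystatin, PRDM1, a transcriptional repressor, the long noncoding RNA PCAT14, HLA-DPB1, a class II histocompatibility chain, and RBMS3, an RNA-binding protein. Their KO levels lay between 85.5 and 138 CPM and their WT levels between 2.48 and 7.23 CPM.

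For 15 of the genes higher in KO, chosen after their values were seen, the cells that held them were compared. With at least 2 UMIs counted as detection, 1881 KO cells (33.5%) had FGB and 5 WT cells (0.0816%) did. Of the FGB cells, 97.0% also had APOA1, 96.1% LGALS3, 50.5% HLA-DPB1, 39.6% CDH17 and 27.5% SOX17, but 2.92% had ANXA1 and 0.797% TFAP2B. Of the KO cells without FGB, 48.5% had APOA1, 19.6% LGALS3, 2.39% HLA-DPB1, 6.57% CDH17 and 1.53% SOX17, so APOA1 was common outside the FGB cells too. CHGA-rich cells, defined further on, made up 2.61% of the FGB cells. A second and smaller set of 373 KO cells (6.65%) had TFAP2B or COL3A1, and 21 cells (0.374%) belonged to both sets. Of the 288 cells with TFAP2B, 89.9% had ANXA1, 53.8% COL3A1 and 5.21% FGB. LGALS3 was found in both sets, in 52.8% of the TFAP2B cells. PDGFRA, a receptor often read as mesenchymal, went with the FGB set instead: 70.6% of its 472 cells had FGB and 0.636% had COL3A1. The remaining 3378 KO cells (60.2%) had neither. Set against the 6122 WT cells without these genes, they gave 511 genes at least 2-fold higher, 320 of them among the 664. This removal takes cells almost only from KO, by genes chosen as high in KO. It changes the mix of cells there and is no test of which differences persist. Cells with more UMIs have more chance of 2 UMIs of any gene, and the median UMI count of these cells lay between 7262.5 in ANXA1 cells and 8932 in CST1 cells.

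Many genes of the AP-2 list, which surface ectoderm and amnion express, and many mesenchymal genes were higher in KO when all cells were summed. Of 20 genes on the AP-2 list 13 were tested, with 9 at least 2-fold higher and 1 lower in KO (median log2 ratio 3.29). Several passed the 5 CPM minimum through KO alone, so this count is no test of the list. The list summed to 538 CPM in WT and 469 CPM in KO. In CHGA-high cells 4 were tested, with 0 higher and 1 lower. TFAP2B, an AP-2 transcription factor, had 2 UMIs in WT and 1420 in KO, a ratio of 565 (156 to 4669). TFAP2A (0.324 and 13.6 CPM), GATA3 (0.108 and 10.6 CPM) and the GABA receptor subunit GABRP (0.189 and 17.3 CPM) had the same pattern. IGFBP5, which binds insulin-like growth factors, was the member lower in KO, at 426 CPM in WT and 175 CPM in KO. ANXA1, a phospholipid-binding annexin, stood at 1.21 CPM (0.885 to 1.62) in WT and 297 CPM (292 to 302) in KO, a ratio of 245 (183 to 336). COL3A1 and DCN, fibrillar collagen and decorin of connective tissue, had 0 UMIs in WT and stood at 40.2 and 20.7 CPM in KO, at least 497-fold and 256-fold higher. Of 9 mesenchymal genes tested 6 were at least 2-fold higher and 0 lower, but COL1A1, the main collagen of most mesenchyme, was within 2-fold (4.77 and 5.43 CPM).

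BMP response genes were higher in the GPX2 KO library in part of their list. Bone morphogenetic proteins (BMPs) act through SMAD1, SMAD5 and SMAD9 and switch on the ID genes, and they are known to favour liver over pancreas in the foregut. Of 18 tested genes of this pathway 9 were at least 2-fold higher and 0 lower in KO (median log2 ratio 0.91). Without the cells that had at least 2 UMIs of FGB, TFAP2B or COL3A1, a setting chosen after seeing the data, 4 were higher and the median was 0.09. That setting leaves 6122 WT and 3378 KO cells, so it takes out cells almost only from KO. Among ligands, BMP5 stood at 1.59 CPM in WT and 45.8 CPM in KO, a ratio of 28.8 (22.2 to 37.9), and BMP2 at 4.18 and 11.7 CPM. The receptors BMPR1A (231 and 189 CPM) and BMPR2 (200 and 161 CPM) were within 2-fold. Among targets, ID1 stood at 14.9 CPM (13.7 to 16.2) in WT and 109 CPM (106 to 112) in KO, ID3 at 26.6 and 143 CPM, ID2 at 91.0 and 192 CPM, and MSX2 at 0.189 and 14.7 CPM. Of the related TGF-β list, 17 genes were tested, with 2 higher and 3 lower. TGFB2 (53.4 and 23.6 CPM) and TGFB3 (18.4 and 5.86 CPM), both ligands, were lower in KO.

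In the basement membrane list 3 of 18 tested genes were higher and 1 was lower (median log2 ratio 0.11), and without the FGB, TFAP2B and COL3A1 cells 3 were higher and 3 lower (-0.33). LAMA1, the laminin α1 chain of embryonic basement membrane, stood at 83.0 CPM (80.1 to 86.0) in WT and 622 CPM (615 to 629) in KO, a ratio of 7.50 (7.22 to 7.78). Its usual partners were within 2-fold: LAMB1 stood at 133 and 193 CPM and LAMC1 at 92.2 and 77.4 CPM. SPARC, a matricellular protein, stood at 8.17 and 99.7 CPM. Of 22 tested genes of interstitial matrix and proteoglycans 11 were higher and 0 lower, led by GPC3, a glypican of fetal liver (87.9 and 508 CPM), and VCAN, versican (17.0 and 184 CPM), whereas FN1, fibronectin, stood at 499 CPM in WT and 334 CPM in KO. Without the same cells 5 of these matrix genes were higher (median log2 ratio 0.30 in place of 0.76), and 1 in place of 6 mesenchymal genes (0.17 in place of 1.88). In the list of annexins, S100 proteins and galectins 7 of 19 were higher and 0 lower, and without those cells 3 were higher and 1 lower. S100A10, the annexin A2 partner, was the most abundant of these, at 406 CPM in WT and 1805 CPM in KO, a ratio of 4.44 (4.37 to 4.52), and ANXA2 itself stood at 283 and 332 CPM.

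Metallothioneins were lower in the GPX2 KO library. All 6 metallothionein genes tested were at least 2-fold lower, whereas 4 of the 5 zinc-handling genes tested were within 2-fold and the zinc importer SLC39A4 was higher (2.56 and 17.1 CPM). MT2A stood at 142 CPM (138 to 145) in WT and 20.8 CPM (19.5 to 22.2) in KO, a ratio of 0.147 (0.137 to 0.158). MT1G stood at 63.6 and 6.61 CPM, a ratio of 0.104 (0.0920 to 0.117), and MT1E at 69.7 and 8.56 CPM. MT1X (63.6 and 16.1 CPM), MT1F (54.1 and 10.6 CPM) and MT1H (24.7 and 1.29 CPM) had the same direction. Genes under 10 kb as a class had a positive median log2 ratio, given above. MTF1, the zinc-sensing factor that switches metallothioneins on, stood at 18.8 CPM in WT and 16.6 CPM in KO, and its other known target SLC30A1, a zinc exporter, at 12.4 and 14.4 CPM. Metallothioneins are near-identical copies of each other, so the share of each single gene is less certain than their sum.

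The promoters of MT2A and MT1X are shown because these genes were both lower in KO and lie near each other on chromosome 16. The runs are the 250 bases before the RefSeq start on the plus strand (GRCh38.p14), MT2A at chr16:56608334-56608583 and MT1X at chr16:56682220-56682469. Capitals mark TGCNCNC, the core of the metal response element that MTF1 binds, on either strand.
MT2A: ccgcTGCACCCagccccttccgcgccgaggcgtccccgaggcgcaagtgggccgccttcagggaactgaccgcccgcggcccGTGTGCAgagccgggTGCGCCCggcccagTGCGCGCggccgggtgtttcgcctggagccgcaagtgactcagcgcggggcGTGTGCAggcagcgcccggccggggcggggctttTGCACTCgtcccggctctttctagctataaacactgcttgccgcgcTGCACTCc
MT1X: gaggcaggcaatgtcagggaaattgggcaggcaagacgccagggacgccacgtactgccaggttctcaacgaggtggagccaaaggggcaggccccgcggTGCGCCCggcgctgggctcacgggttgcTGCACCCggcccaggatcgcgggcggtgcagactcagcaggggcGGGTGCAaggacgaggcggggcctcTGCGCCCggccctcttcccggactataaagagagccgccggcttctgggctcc
MT2A holds 7 matches, MT1H 8 and MT1X 4. MT1E, MT1F and MT1G are named only. At least 3 matches occur in 5.74% of all 27305 promoters, and at least 1 in 48.4%.

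Progenitor genes were lower in part. NEUROG3, the factor that commits progenitors to the endocrine fate, stood at 17.6 CPM (16.2 to 19) in WT and 1.44 CPM (1.11 to 1.83) in KO, a ratio of 0.0819 (0.0627 to 0.105). Of 17 tested genes of endocrine commitment and Notch signalling 5 were at least 2-fold lower and 0 higher, with a median log2 ratio of -0.62. NOTCH1, the receptor (29.0 and 8.22 CPM), its ligand JAG1 (22.4 and 9.74 CPM) and HES6, a target of NEUROG3 (73.0 and 26.4 CPM), were among the 5, whereas the Notch target HES1 stood at 65.2 and 79.2 CPM. Pancreatic progenitor factors were divided: 3 of 21 were higher and 2 lower, with a median log2 ratio of -0.15. PDX1 stood at 53.2 CPM (50.9 to 55.6) in WT and 40.1 CPM (38.3 to 42.0) in KO, NKX6-1 at 51.1 and 37.8 CPM, and SOX9 at 18.9 and 14.5 CPM, all within 2-fold. MEIS1, a homeobox partner of PBX and HOX proteins, was lower, at 630 and 235 CPM, and NR5A2, a nuclear receptor of acinar and endodermal cells, was higher, at 12.3 and 84.0 CPM.

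All 7 HOX genes tested of 28 were at least 2-fold lower in the GPX2 KO library, and they were at low levels in both. The other 21 were under the 5 CPM minimum, and some of the HOXB genes among them had the opposite order, such as HOXB2 at 0.998 CPM in WT and 4.01 CPM in KO. HOXC4 stood at 15.7 CPM in WT and 3.84 CPM in KO, HOXC5 at 8.98 and 0.751 CPM, and HOXA3 at 17.7 and 8.26 CPM. RARB, a retinoic acid receptor that is itself induced by retinoic acid, stood at 121 CPM in WT and 33.9 CPM in KO, a ratio of 0.279 (0.264 to 0.296). In the same list ALDH1A1, an enzyme that makes retinoic acid, was higher, at 130 and 353 CPM. SOX2, a factor of foregut and neural progenitors, stood at 185 CPM in WT and 62.6 CPM in KO.

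Among genes with at least 50 CPM in either library, KCTD16, an auxiliary subunit of GABA-B receptors, was the most abundant of the 12 with the lowest ratios, at 593 CPM (585 to 601) in WT and 116 CPM (113 to 119) in KO, a ratio of 0.196 (0.190 to 0.202). ENOX1, an oxidase of the cell surface, stood at 236 and 36.9 CPM. CLIC5, a chloride intracellular channel protein, stood at 191 and 29.2 CPM, and MTTP, which loads lipid onto apolipoprotein B, at 178 and 28.4 CPM. CD96, a receptor best known from T and NK cells, had the lowest ratio among genes with that minimum, at 82.0 CPM in WT and 5.88 CPM in KO, 0.0717 (0.0632 to 0.0812). MT1H and LY6E, below the minimum, had lower ratios. MYOCD, PDE1A and PCDH19 completed the set together with CLDN18, MT1G, MT1E and MT2A. Of the genes that could be named, 34 were at least 10 CPM in KO and under 0.5 CPM in WT, and 0 were the reverse. Clone-named, mitochondrial, ribosomal protein, X inactivation and Y-linked genes were not counted here.

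JRK and ZFP41, zinc finger or transposase-derived genes of 8q24.3, had 82 and 33 UMIs in WT and 0 in KO. JRK was thus at least 34.4-fold and ZFP41 at least 13.8-fold lower. LY6E of the same band had 269 UMIs in WT and 8 in KO, a ratio of 0.0237 (0.0101 to 0.0473). These genes were picked after their values were seen.

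Most endocrine genes were within 2-fold between the libraries, as were most genes of any kind. Of all 13568 tested genes 4.89% were at least 2-fold higher and 3.13% at least 2-fold lower. INS stood at 16731 CPM (16689 to 16773) in WT and 23792 CPM (23748 to 23836) in KO, a ratio of 1.42 (1.42 to 1.43). Without the FGB, TFAP2B and COL3A1 cells the log2 ratio of INS was 1.13 in place of 0.51 and that of CHGA 1.19 in place of 0.54, both then past 2-fold. GCG, glucagon, stood at 2714 and 3785 CPM, a ratio of 1.39 (1.38 to 1.41). SST, somatostatin, at 91.1 and 211 CPM, and CCK, cholecystokinin, at 26.7 and 108 CPM, were the 2 of 9 tested hormones at least 2-fold higher. NPY was the 1 that was lower, at 10.0 and 2.47 CPM. Of 24 genes of granules and prohormone processing 23 were within 2-fold, among them CHGA at 3240 and 4723 CPM, the zinc transporter SLC30A8 at 142 and 149 CPM and the convertase PCSK1 at 58.8 and 41.7 CPM. Of 23 endocrine transcription factors 21 were within 2-fold, for example ISL1 (50.7 and 61.2 CPM) and NEUROD1 (151 and 154 CPM). IRX2 (14.9 and 46.4 CPM) and HHEX (2.91 and 8.0 CPM) were higher. IAPP and MAFA, genes of mature β cells, were under 5 CPM in both libraries. IAPP stood at 2.24 CPM in WT and 2.96 CPM in KO, and MAFA at 0.998 and 1.59 CPM.

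Cells were then split by CHGA, the granule protein of all endocrine cells, at 10 UMIs per 10000. The CHGA-high range held 1991 WT cells, 32.5% (31.3 to 33.7), and 1726 KO cells, 30.8% (29.6 to 32.0). This is a range of 1 gene and not a cell type, and 15.2% of WT cells but 3.31% of KO cells lay between 5 and 20. With a limit of 5 the shares were 43.7% in WT and 32.9% in KO, and with 20 they were 28.4% and 29.6%, so the limit decides which genotype has the larger share. In the CHGA-high range endocrine markers were at a median of 250 UMIs per 10000 in WT and 655 in KO, and hepatic markers at 1.70 and 3.36. In the CHGA-low range endocrine markers were at a median of 20.8 in WT and 8.69 in KO, and hepatic markers at 1.45 and 12. The part of free RNA in these medians was not tested.

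Within CHGA-high cells 280 of 13062 genes were at least 2-fold higher in KO (2.14%) and 452 at least 2-fold lower (3.46%). With scaling by the median gene these became 427 and 320, so the balance of directions turns with the scaling. SCT, secretin, stood at 72.2 CPM in WT and 443 CPM in KO, a ratio of 6.13 (5.73 to 6.57). CCK stood at 70.2 and 317 CPM, and GAST, gastrin, at 218 and 612 CPM, a ratio of 2.80 (2.69 to 2.92). GC, the vitamin D-binding protein that islet α cells express, stood at 52.2 and 171 CPM. SCT, CCK and GAST are hormones of the gut; SCT, GAST and GC were named after their values were seen. Galanin (GAL), a neuropeptide, was lower, at 126 and 25.7 CPM, as was CD96, at 177 and 9.18 CPM. INS stood at 44051 and 68150 CPM, a ratio of 1.55 (1.54 to 1.55), in this range. All but 1 of 23 endocrine transcription factors and all but 1 of 24 granule genes were within 2-fold, as were most genes of this range.

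Levels in KO CHGA-high cells were set beside those in empty droplets for some genes higher there. FGB stood at 37.0 CPM in these cells, at 745 CPM in KO CHGA-low cells and at 337 CPM in the empty droplets. LGALS3 stood at 63.2, 948 and 446 CPM in the same order. Both are below their level in the empty droplets in CHGA-high cells, so their ratios there were not read as expression by CHGA-high cells. VTN stood at 151 CPM in these cells and in the droplets alike. Of 19 hepatic secreted genes tested in this range 13 were past 2-fold, and they were divided in this respect. FGG (20.4 CPM in CHGA-high cells and 160 CPM in the droplets), AFP (16.5 and 69.7 CPM) and RBP4 (13.5 and 21.5 CPM) were below their droplet level too. Their ratios were likewise not read as expression by CHGA-high cells. TTR (9950 and 7852 CPM), APOA2 (334 and 185 CPM) and SERPINA1 (133 and 93.7 CPM) were above their droplet level. GC (171 and 72.5 CPM) and SCT (443 and 291 CPM) were above it as well. The share of free RNA among the UMIs of a cell was not measured. A level below or above that of the droplets therefore cannot separate expression from free RNA.

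Within CHGA-low cells 909 of 13353 genes were at least 2-fold higher in KO (6.81%) and 641 at least 2-fold lower (4.80%). FGB stood at 1.75 CPM in WT and 745 CPM in KO, and AFP at 0.209 and 183 CPM. KCTD16 stood at 838 and 102 CPM here but at 147 and 143 CPM in CHGA-high cells, so its difference lay in CHGA-low cells. The metallothioneins were likewise expressed mainly in CHGA-low cells of WT, where MT2A stood at 206 CPM against 24.5 CPM in CHGA-high cells. Endocrine transcription factors were lower in KO here, 11 of 21 at least 2-fold with a median log2 ratio of -1.05. With a CHGA limit of 5 it was 8 of 19 and -0.90, and with 20 it was 11 of 22 and -1.07. Of 5 hormones tested in CHGA-low cells 2 were lower and 1 higher. GCG (386 and 86.4 CPM) and PYY (6.14 and 1.40 CPM) were the lower ones and SST (4.60 and 11.4 CPM) the higher one, with INS at 1728 and 1026 CPM and GHRL at 28.4 and 27.0 CPM. Free RNA could not be measured in WT, and its part in these hormone levels was not tested.

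**Figure D2:**
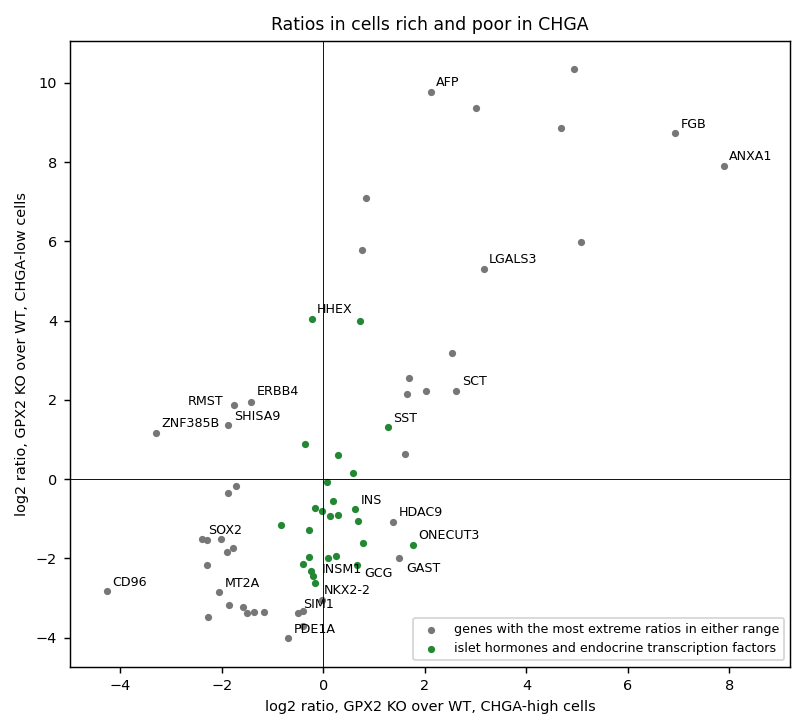
Log2 ratio of GPX2 KO over WT in CHGA-high cells (horizontal axis) and CHGA-low cells (vertical axis) for the genes with the most extreme ratios in either range (grey) and for islet hormones and endocrine transcription factors (green), 1 point per gene with at least 5 CPM in both ranges. ERBB4 and HDAC9 were added to the grey points after their values were seen. Most hormones and endocrine factors lie within 1 of 0 on the horizontal axis and below 0 on the vertical axis, FGB and ANXA1 lie far up and right, and ZNF385B, RMST, ERBB4 and SHISA9 lie in the upper left part.

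Shares of cells with at least 1 UMI were compared after thinning, which left out 281 WT and 36 KO cells with fewer than 3000 UMIs. FGB was found in 0.325% of WT cells (0.196 to 0.507) and 33.8% of KO cells (32.6 to 35.1). Before thinning these were 0.522% and 39.1%. Among thinned KO cells 47.2% of the CHGA-low but 3.83% of the CHGA-high cells had a UMI of FGB, and the median depths before thinning were 7665 and 9074.5 UMIs. APOA1 was found in 26.6% of WT and 63.0% of KO cells, LGALS3 in 4.89% and 45.9%, and CFTR in 0.804% and 15%. SOX17 was in 0 of 5847 WT cells, which allows a share of up to 0.0631% of cells with a UMI at this depth and does not limit the cells expressing it, and in 10.2% of KO cells. COL3A1 was in 0 of the same cells and in 4.95% of KO cells. In the other direction, KCTD16 was found in 52.8% of WT and 16.7% of KO cells, MTTP in 33.3% and 7.39%, and MT2A in 17.2% and 2.73%. For these genes the shares of cells had the same order as the summed levels.

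For hormones such shares were not read as expression. INS was found in 98.4% of thinned WT and 88.0% of KO cells, and in CHGA-low cells in 97.8% and 83.4%. GCG was found in 68.1% of WT and 26.6% of KO cells, against its CPM, and in WT its share in CHGA-low cells (67.7%) was about that in CHGA-high cells (68.8%). SCT, by contrast, was in 8.74% of WT and 34.0% of KO CHGA-high cells and in 0.815% and 4.18% of CHGA-low cells.

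Over all cells summed, where 4.89% of all tested genes were at least 2-fold higher and 3.13% lower, several lists held no gene past 2-fold. Among them were 24 proliferation genes (median log2 ratio -0.21, but 0.28 and 0.25 with the wider cell filters), of which MKI67 stood at 33.9 CPM in WT and 22.3 CPM in KO and PCNA at 20.9 and 30.2 CPM. Cells with UMIs of at least 2 of MKI67, TOP2A and CDK1 made up 6.33% of WT and 6.43% of KO. Within CHGA-high cells 3 of 9 tested proliferation genes were at least 2-fold lower in KO, as were 3.46% of all genes tested there. With a CHGA limit of 5 it was 11 of 16, and 741 genes of any kind were lower. That limit raised the CHGA-high cells from 1991 to 2675 in WT but only from 1726 to 1845 in KO. Over all cells, other lists without a gene past 2-fold were 25 genes of cholesterol and fatty acid synthesis (0.04), 24 of glycolysis and hypoxia (0.07) and 19 of the unfolded protein response (-0.08, which turns to 0.03 with scaling by the median gene). EGLN3, a glycolysis and hypoxia list member, was lower in KO CHGA-low cells (15 and 5.49 CPM). Of 19 antioxidant enzymes 18 were within 2-fold, with a median log2 ratio of 0.33. GPX4, which reduces lipid peroxides in membranes, stood at 175 CPM in WT and 230 CPM in KO, TXN, thioredoxin, at 170 and 295 CPM, and GPX7 at 20.2 and 38.4 CPM. SELENOP, the selenium carrier of plasma, was the 1 past 2-fold, at 37.7 and 78.0 CPM. In CHGA-low cells, however, 4 of 19 antioxidant enzymes were at least 2-fold higher in KO and 0 lower (median log2 ratio 0.44). Of all genes tested in that range 6.81% were higher. Of 17 NRF2 targets 2 were higher and 0 lower over all cells, and the classical target NQO1 stood at 19.4 and 13.5 CPM. Fold limits of this kind do not show that these genes were equal, since the replicate spread is unknown.

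At the earlier pancreatic endoderm (PEN) stage, day 8, other libraries were made from the same lines. They were made with another single-cell method, hold 2869485 WT and 2602874 KO UMIs and are set beside the SC-β values only as a description. Of 13103 genes tested there 3.29% were at least 2-fold higher in KO and 4.71% lower. Of 14 hepatic secreted genes tested there 0 were at least 2-fold higher and 1 was lower in KO, and FGB stood at 5.92 CPM in WT and 4.61 CPM in KO. Of 10 genes of the AP-2 list 7 were higher and 0 lower. Of 18 genes of the BMP list 2 were higher and 1 lower (median log2 ratio -0.07). BMP5 stood at 8.36 and 45.7 CPM, and SOX17 at 3.48 and 13.8 CPM. KCTD16, lower in KO at the SC-β stage, stood at 56.1 CPM in WT and 148 CPM in KO.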

How the data were processed

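The authors made the day 21 libraries with 10x Genomics Chromium and processed them with Cell Ranger 7.1.0 on GRCh38; the deposited matrices hold raw UMI counts per gene and barcode, 1 library per genotype. The deposited day 8 matrices, from ScaleBio combinatorial indexing, hold expected counts that need not be whole and were rounded to whole numbers per gene and cell before summing. Barcodes with 1500 to 5000 genes and under 15% mitochondrial UMIs were kept (day 8: at least 200 genes and under 5%). No doublets were removed: Scrublet marked 4 WT cells (0.0653%, so it has not worked there) and 110 KO cells (1.96%). UMI counts were summed per genotype and scaled to CPM; genes with at least 5 CPM in either genotype were compared. Intervals are exact Poisson for levels, conditional binomial for ratios and Clopper-Pearson for shares. A count of 0 was bounded with 3 counts per library, 0.0809 CPM in WT and 0.0644 CPM in KO.

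Genes were named as the 12 highest and 12 lowest ratios, by the interval bound nearest to 1, among genes with at least 50 CPM, also within each CHGA range; the 10 with the most UMIs; and members of 36 gene lists. The members and lists were chosen with earlier results of these data known. Mitochondrial, ribosomal protein, X inactivation, Y-linked and unnamed clone genes were left out of the highest and lowest ratios. They were also left out of the counts of genes nearly absent from 1 library. The calculations (Python 3.11.15, numpy 2.4.6, scipy 1.17.1, pandas 2.3.3, scanpy 1.11.5) were tested on simulated data. Alternatives covered the cell filter, scaling, level minimum, fold, CHGA limit, doublets and thinning. Bulk RNA-seq and ATAC-seq were not used here. Some genes of these lists are not reported here.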

Additional observations from a re-analysis of the deposited data

Results flagged for a closer look

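Some genes had opposite directions in CHGA-high and CHGA-low cells, each at least 2-fold; the difference was not tested, since each genotype has 1 library. The log2 ratio of GPX2 KO over WT was -3.29 in CHGA-high and 1.18 in CHGA-low cells for ZNF385B. For ERBB4, a neuregulin receptor, it was -1.42 and 1.94. The long noncoding RNA RMST had -1.76 and 1.87, and SHISA9 -1.88 and 1.36. The reverse order was seen for the hormone genes CCK, with 2.17 and -1.26 (only 69 WT and 37 KO UMIs in CHGA-low cells), and GAST, with 1.49 and -1.98. ONECUT3, a homeobox factor, had 1.76 and -1.65, and HDAC9, a histone deacetylase, 1.37 and -1.07. Of WT cells 15.2% and of KO cells 3.31% lay near the CHGA limit, and their part in these values was not tested.

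KO barcodes with 1 to 100 UMIs, which no comparison uses as cells, held RNA of endocrine and hepatic genes. INS was at 42893 CPM and GCG at 7453 CPM there. FGB was at 337 CPM and LGALS3 at 446 CPM.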

How the results depend on the processing

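Counts of genes past the fold depended on its settings. At least 20 CPM gave 291 higher and 181 lower genes in all cells, 105 and 139 in CHGA-high and 431 and 307 in CHGA-low cells. At least 1 CPM gave 1260 and 981, 670 and 1348, and 1710 and 1329. At least 4-fold gave 266 and 69, 50 and 64, and 425 and 144. At least 1.5-fold gave 1173 and 1296, 723 and 1314, and 1502 and 1763. Scaling by the median gene gave 427 higher genes in CHGA-high cells, and a CHGA limit of 5 gave 741 lower ones. Without cells with FGB, TFAP2B or COL3A1, an alternative added after seeing the data, CHGA-low cells had 527 higher and 421 lower genes. In all cells that setting gave 511 and 397, of which 320 and 300 were shared with the main result. The share of CHGA-high cells was 43.7% in WT and 32.9% in KO with a limit of 5, and 28.4% in WT with 20. It was 34.0% and 33.2% with at least 1000 genes and under 20% mitochondrial UMIs, 34.5% and 33.0% without proliferating and mesenchymal cells, and 32.9% in KO with no upper limit on genes. Of the planned log2 ratios of named genes 576 kept their side of 2-fold and 5, all of SIM1 and BAALC, did not, while 174 planned shares of cells moved beyond their interval and 42 did not. In the alternative added later 74 log2 ratios stayed, 6 moved and 3 fell below 2-fold. The sign turned in 9 of 581 planned log2 ratios and 8 of 252 planned list medians, all at most 0.21 in size, and in 3 of 83 and 6 of 36 in the alternative added later, among them annexins (0.63 and -0.00). With a CHGA limit of 5, 3 of 36 list medians in CHGA-high cells turned sign. The median of all genes was -0.10 and became 0.02 with scaling by the median gene. No paired analysis was possible because each genotype has 1 library, so no replicate could be left out either. Depth limits genes of a few UMIs, and the intervals hold no spread between clones, cultures or libraries.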
